A study of Mus musculus with 2 samples.

Results

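The regions described here are the accessible sites of the 11-day mouse embryo that lie mostly in repetitive DNA and away from protein-coding promoters. They are DNase-seq peaks of replicate 1 on chromosomes 1 to 19 that overlap a replicate 2 peak by at least 1 bp, have over 50% of their 150 bases in lower case in the soft-masked GRCm38.p6 (mm10) reference, and have a midpoint more than 1 kb from every transcription start site (TSS) of a protein-coding gene in GENCODE M21. This rule gave 5132 mostly repeat peaks among 122683 shared distal peaks, or 4.18% (Wilson 95% interval 4.07% to 4.30%), and among 204697 peaks of replicate 1 in all. The rule used sequence, position and the presence of a peak in both replicates, and no score value. Mostly repeat peaks of replicate 1 left out for want of a replicate 2 partner scored lower, as given below. Of the 5132 peaks, 775 overlapped another of them and so shared bases with it, and the set covers 4733 separate stretches.

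DNase I cuts DNA where nucleosomes do not protect it, and a peak marks a stretch with many cuts. Whole B6NCrl embryos of 11 days, males and females pooled, made up a single group, healthy per the labels, with 2 biological replicates, labelled as separate biosamples of a shared donor entry. No other age, tissue or genotype is analysed here, so the comparisons are between sets of sites, each read in both replicates. Because a whole embryo mixes all its cell types, a site open in fewer cells and a site less open in each cell cannot be told apart. All 16 embryonic marker genes looked up had a promoter peak in both replicates, against 0 of 4 genes of adult pancreas and sperm. The share over all genes was not counted, so this describes only the genes looked up and is no test of the tissue. Peak lists held 204697 peaks in replicate 1 and 231103 in replicate 2, and without the read counts behind them the sequencing depth is unknown.

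A large part of the mouse genome descends from transposable elements, among them short interspersed elements (SINEs), which are copied by RNA polymerase III from internal promoter boxes like those of tRNA genes. Many copies hold matches to binding motifs of transcription factors, and mouse SINEs of the B2 family are known to have spread binding sites of CTCF, the zinc-finger protein that marks insulators and loop anchors. Younger copies resemble each other more closely than old ones, which makes short reads from them harder to place in the genome.

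Repeat here means masked in this reference, and not membership of a known repeat family. The mask of chromosomes 1 to 19 consists of 11594195 runs of lower case with a median length of 29 bases, and 27.4% of runs reach 50 bases. A masked stretch need not be part of an annotated transposable element, and the masking tool is not stated. A 20-base word with at least 100 copies in the genome occurred in 80.8% of mostly repeat peaks, against 3.53% of the other 117551 shared distal peaks, which describes what the mask marks and is no independent check of it. Masked bases came to 33.5% of the assembled chromosomes 1 to 19. The mask came with no family names, so sequence groups were formed here from the peaks' own similarity (links of at least 75 aligned bases with at least 70% identity) and carry letters from A, the largest, to I. Only group C could be tied to a named element, an annotated B1_Mus2 SINE of the RefSeq annotation.

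The sequences that carry the main findings are shown first, each a whole peak of the reference in GRCm38.p6, read along the common orientation of its group. For group A, the largest, capitals mark the match to the CTCF consensus in the best-ranked peaks that have it (near Fadd, chr7:144583696-144583845, minus strand, and near Top1mt, chr15:75660296-75660445, minus strand). The best-ranked group A peak of all, near Nrbf2 (chr10:67311396-67311545, minus strand), has no match and stands beside them for comparison.
A, Fadd: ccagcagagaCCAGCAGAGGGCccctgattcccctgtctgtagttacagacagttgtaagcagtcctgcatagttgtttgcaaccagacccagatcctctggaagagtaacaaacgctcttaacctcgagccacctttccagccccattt
A, Top1mt: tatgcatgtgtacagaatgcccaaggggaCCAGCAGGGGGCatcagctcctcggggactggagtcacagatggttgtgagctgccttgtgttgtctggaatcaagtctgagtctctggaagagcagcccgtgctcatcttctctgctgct
A, Nrbf2: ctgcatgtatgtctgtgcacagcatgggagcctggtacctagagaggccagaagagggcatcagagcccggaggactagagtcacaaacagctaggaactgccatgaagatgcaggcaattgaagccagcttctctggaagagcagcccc

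Group B is shown by its best-ranked peak with the CTCF consensus, near Spink2 (chr5:77217316-77217465, minus strand, capitals for CTCF), and by its best-ranked peak with a box B match, near Os9 (chr10:127125356-127125505, plus strand, capitals for box B). The Os9 match reads forward along the group, as only 3 of the 325 placed matches of group B do, so another group B peak with a match, near 1700003E16Rik (chr6:83159516-83159665, minus strand), is shown with its match in the usual direction. Box B is the second internal promoter element of tRNA genes and of many SINEs, the contact of the polymerase III factor TFIIIC, and was searched as GTTCNANNC on both strands. Group C is shown by its best-ranked peak with box B, in an intron of Tex14 (chr11:87462756-87462905, plus strand, capitals for box B), beside the 138 bases of the annotated B1_Mus2 element (chr7:103823699-103823836, plus strand). The Tex14 peak had no alignment of at least 50 bases to that element and joined group C by its links to other peaks.
B, Spink2: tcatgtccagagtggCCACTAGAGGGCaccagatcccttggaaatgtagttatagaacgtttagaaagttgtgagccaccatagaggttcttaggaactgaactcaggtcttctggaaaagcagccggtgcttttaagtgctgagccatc
B, Os9: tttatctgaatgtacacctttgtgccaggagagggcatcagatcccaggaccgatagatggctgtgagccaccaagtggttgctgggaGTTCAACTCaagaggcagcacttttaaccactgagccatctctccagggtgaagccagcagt
B, 1700003E16Rik: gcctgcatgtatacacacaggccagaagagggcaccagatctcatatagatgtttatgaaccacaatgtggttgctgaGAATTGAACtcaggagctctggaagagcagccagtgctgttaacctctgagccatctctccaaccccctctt
C, Tex14: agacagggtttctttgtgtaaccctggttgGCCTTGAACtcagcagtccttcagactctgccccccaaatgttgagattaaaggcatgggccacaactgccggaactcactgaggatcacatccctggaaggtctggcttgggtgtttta
B1_Mus2: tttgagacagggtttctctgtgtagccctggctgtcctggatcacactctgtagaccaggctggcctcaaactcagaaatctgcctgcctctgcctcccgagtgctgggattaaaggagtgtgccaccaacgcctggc

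Group D differs from these in its motifs. Its best-ranked peak with an E-box (CAGCTG, a contact of bHLH factors such as those of muscle and nerve) is shown, near Rptor (chr11:119661516-119661665, plus strand, capitals for the E-box). A tandem repeat peak near Nr2f1 (chr13:78201396-78201545, plus strand) and the best-ranked peak of all, in an intron of Ddc (chr11:11821716-11821865, plus strand), belong to no group and have no capitals.
D, Rptor: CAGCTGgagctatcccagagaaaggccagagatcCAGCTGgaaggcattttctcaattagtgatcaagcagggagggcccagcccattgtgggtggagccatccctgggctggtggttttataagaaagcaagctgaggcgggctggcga
Tandem, Nr2f1: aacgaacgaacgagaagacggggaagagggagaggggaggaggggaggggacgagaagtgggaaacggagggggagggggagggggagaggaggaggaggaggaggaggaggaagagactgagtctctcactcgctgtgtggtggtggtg
Ungrouped, Ddc: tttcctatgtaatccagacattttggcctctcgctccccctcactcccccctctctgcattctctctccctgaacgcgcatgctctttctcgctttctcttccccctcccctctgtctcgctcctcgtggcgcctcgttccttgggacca

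Mostly repeat sites were scarce among called peaks. Of distal peaks, 4.50% were mostly repeat in replicate 1 and 4.75% in replicate 2 (mean 4.63% ± 0.178, SD, n = 2), whereas 28.6% of 230128 windows of 150 bp laid every 10000 bp along the same chromosomes, also more than 1 kb from a TSS, were mostly repeat. Of the mostly repeat windows, 17.8% held no unique 36-base word, so reads from them may not have been placed. The part of this in the low share of peaks was not tested. The mostly repeat peaks were also less often found again. In replicate 1, 72.5% of mostly repeat distal peaks overlapped a peak of replicate 2, against 78.3% of other distal peaks and 78.0% of all distal peaks. In replicate 2, the shares with a replicate 1 peak were 59.4% of mostly repeat and 68.4% of other distal peaks. Over both lists this came to 66.0% ± 9.28 for mostly repeat and 73.3% ± 7.01 for other distal peaks (SD, n = 2). Within a list, the share of mostly repeat peaks minus that of other distal peaks was -5.76 percentage points in replicate 1 and -8.97 in replicate 2, a mean of -7.37 ± 2.27 (SD, n = 2). Each list counts the same overlap from its own side, and the lists differ in length. The SDs of these shared percentages and of their difference are therefore not a spread between independent measurements.

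Where repetitive sites were open in both replicates, their scores were low. The score is the authors' own and runs over whole numbers up to 150. How it was built is not stated in the labels or files, so it was compared only within a list. Mostly repeat peaks had a median score of 35 in replicate 1 (quartiles 27 and 47), against 47 (35 and 66) in other shared distal peaks. In replicate 2 the medians were 43 (32 and 56) in mostly repeat peaks and 56 (42 and 76) in the others. For these shared peaks the replicate 2 score is that of the replicate 2 peak with the largest overlap. That overlap may be as small as 1 bp, and the replicate 2 peak need not be mostly repeat itself. The difference of medians was -12 in replicate 1 and -13 in replicate 2, and its SD over both replicates was 0.707. The distributions overlapped over most of the range, so the shift is one of the whole set and not a separation. The 1945 mostly repeat peaks of replicate 1 that were not found in replicate 2 had a lower median score, 25.

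**Figure D1:**
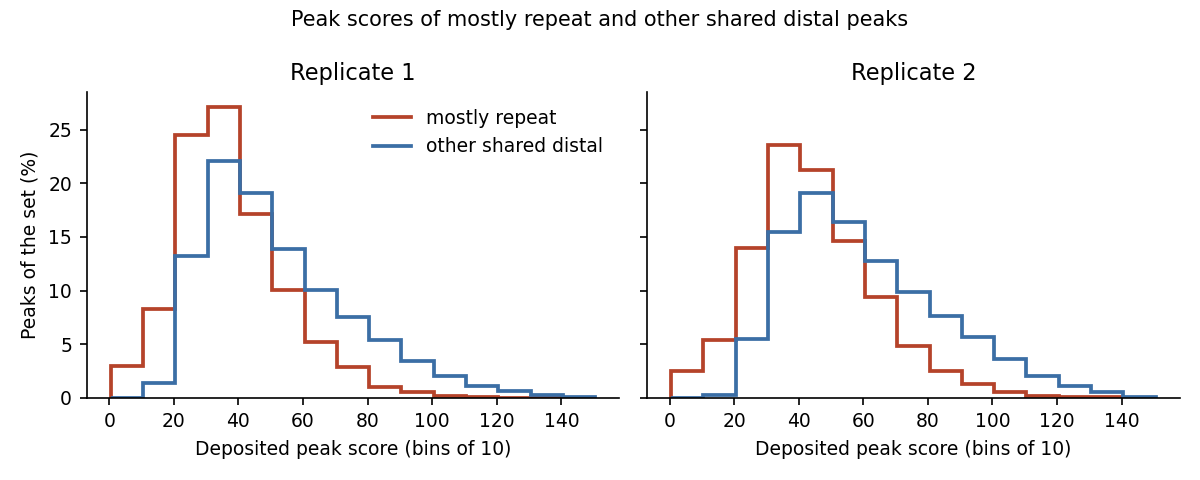
Deposited peak scores in bins of 10 (x axis) against the share of the set in percent (y axis), for mostly repeat peaks (red) and other shared distal peaks (blue), in replicate 1 (left) and replicate 2 (right). Mostly repeat peaks sit lower in both panels, with medians of 35 and 43 against 47 and 56, and the curves overlap.

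The share of repeats fell step by step with the score. Among the tenth of distal peaks with the lowest scores, 11.6% were mostly repeat in replicate 1 and 13.5% in replicate 2. Among the tenth with the highest scores, 0.649% and 0.688% were. Hotspots, the broader enriched regions that the authors deposited beside the peaks, were narrower around mostly repeat peaks. Their median width was 186 bp in replicate 1, against 271 bp around other shared distal peaks, and 203 bp against 308 bp in replicate 2. The deposited −log10 q value of the hotspot stood at its ceiling of 100 for 29.2% of mostly repeat and 39.2% of other peaks in replicate 1, and for 39.3% and 46.9% in replicate 2. The replicates ranked the mostly repeat peaks much alike, with a Spearman rho of 0.879 over 5132 peaks, and 0.913 over the other shared distal peaks, a description over sites of the same pair of libraries.

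Within the set, median scores fell or stayed level from each class of repeat content to the next. The 1530 peaks with 50% to 60% lower-case bases had median scores of 39 in replicate 1 and 47 in replicate 2, and the 476 peaks wholly in lower case had 23 and 25. Between these ends the medians of replicate 1 were 38, 36, 35 and 31. The share of a peak's 36-base words that occur once in the genome moved the same way, with a median of 100% in the first class and 60% in the wholly lower-case class. Its part in the scores was not tested. At the threshold itself there was no step: peaks with 76 lower-case bases had medians of 41 in replicate 1 and 46 in replicate 2, and peaks with 75, just outside, had 41 and 47.

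**Figure D2:**
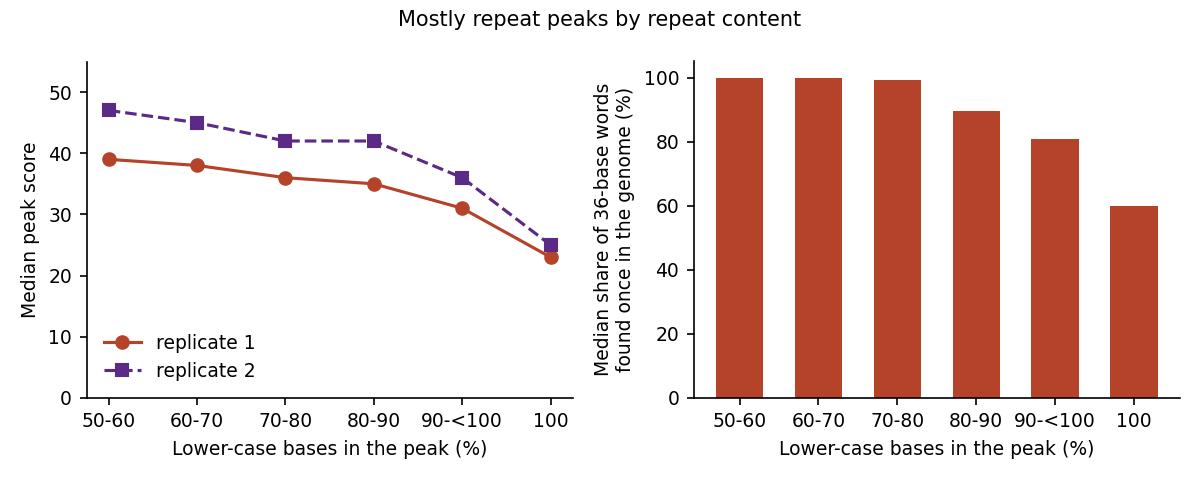
Mostly repeat peaks in 6 classes of lower-case content (x axes, percent of bases), with the median peak score in replicate 1 and replicate 2 (left) and the median share of 36-base words found once in the genome (right). From the lowest to the highest class the median score changes from 39 to 23 (replicate 1) or 47 to 25 (replicate 2), and the unique share from 100% to 60%.

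The peaks held more sequence that is unique in the genome than repeats at large, and less than other open sites. All 36-base words of the peak were unique in 48.1% of mostly repeat peaks, against 97.1% of other shared distal peaks and 22.1% of mostly repeat grid windows. No unique word was left in 1 mostly repeat peak, against 17.8% of mostly repeat windows. Wholly lower-case sequence made up 9.28% of the peaks and 39.1% of the windows. No source used here gives the read length, so the word of 36 bases is a yardstick and not the authors' own limit. With the comparison restricted to the 2470 peaks whose words are all unique, median scores were 39 in replicate 1 and 47 in replicate 2, still below the 47 and 56 of other shared distal peaks with only unique words. The 2662 peaks with some repeated words had medians of 32 and 38.

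Base composition and position also differed from those of mostly repeat windows. Mostly repeat peaks had a median GC content of 50%, near the 51.3% of other shared distal peaks and above the 41.3% of mostly repeat windows. CpG dinucleotides were depleted, with a median observed-to-expected ratio of 0.141, against 0.260 in other shared distal peaks and 0.120 in mostly repeat windows. The median distance to the nearest protein-coding TSS was 16640 bp, against 29008 bp for other shared distal peaks and 60330 bp for mostly repeat windows. Within 1 to 5 kb of a TSS lay 22.9% of the mostly repeat peaks, 17.1% of the other shared distal peaks and 8.75% of the windows. Exons held 2.01% of them, introns 42.1% and the space between genes 55.9%, against 4.65%, 41.5% and 53.9% of other shared distal peaks. A TSS of a noncoding gene lay within 500 bp of 52 mostly repeat peaks (1.01%), against 2.19% of the others and 2.14% of all shared distal peaks. By chromosome the mostly repeat share of shared distal peaks ran between 3.62% on chromosome 13 and 4.87% on chromosome 19.

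A small number of sequence groups accounted for most of the set. Links to another mostly repeat peak were found for 3902 of the 5132 peaks (76.0%), and groups A to I together held 63.4% of the peaks, against 28.6% of mostly repeat grid windows placed in the same groups by their best match. The groups were formed from links between these same peaks, while windows were only matched to them, so the sizes and the ratios to windows describe the set.

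Group A had 1290 peaks, 25.1% of the set, against 1.57% of mostly repeat windows, a ratio of 16.0. Group B had 786 peaks (15.3%), against 3.73% of windows, a ratio of 4.11. Group E with 200 peaks (3.90%) and group I with 89 (1.73%) stood at ratios of 11 and 15 to their windows. The opposite held for group F, which had 171 peaks (3.33%) and 12.4% of windows, a ratio of 0.268. Group C, the B1-related group, was about as common in peaks as in windows, with 274 peaks (5.34%) and 6.17% of windows. Of its 274 peaks, 207 aligned to the B1_Mus2 element, with a median identity of 84.6%. Groups D, G and H had 219, 113 and 113 peaks and ratios of 2.67, 3.13 and 1.16.

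**Figure D3:**
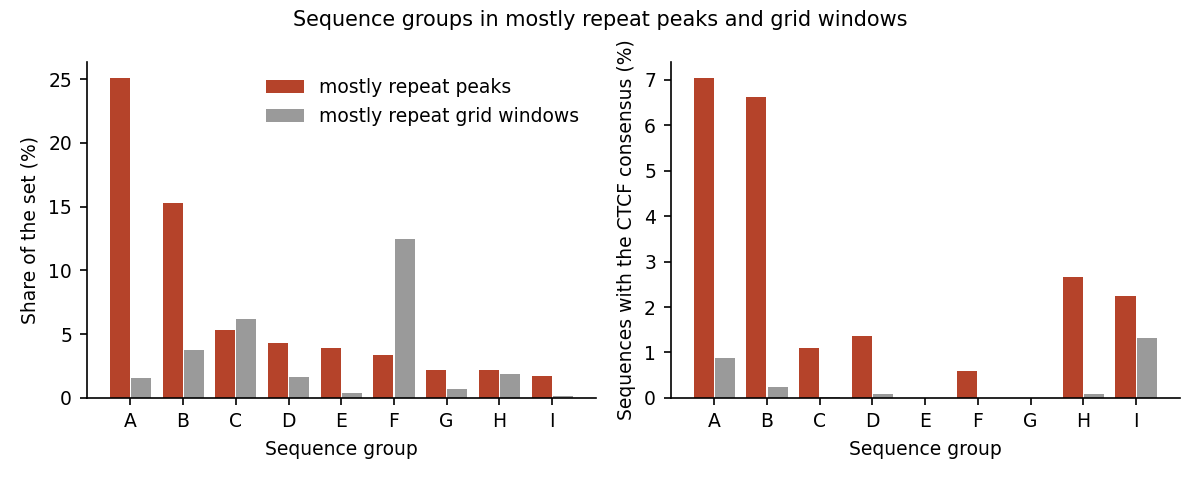
Share of mostly repeat peaks (red) and of mostly repeat grid windows (grey) in sequence groups A to I (left), and the share of each group's sequences with a CTCF consensus match (right), both in percent. Group A holds 25.1% of peaks and 1.57% of windows, group F 3.33% and 12.4%, and CTCF matches reach 7.05% of peaks in group A and 6.62% in group B.

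Scores differed between the groups. Group G had the highest medians, 43 in replicate 1 and 48 in replicate 2, next to group A with 40 and 48 and group E with 39 and 45.5. Group F had the lowest, 25 and 28, and group C had 30 and 35. The share of unique 36-base words had medians of 100% in groups A, G and H, 96.5% in group D and 87.8% in group C. It was 87.0% in group E, 86.1% in group B, 67.8% in group F and 60.9% in group I. Group H had median scores of 34 and 41 and group I of 35 and 45, so the groups were not ordered alike by both. Groups A and B lay closest to genes, with median TSS distances of 11695 and 7481 bp, against 17663 and 13346 bp for their windows. Group F lay farthest, at 73725 bp in peaks and 126504 bp in windows. Group I was rich in CpG for a repeat, with a median of 5 CpG dinucleotides per peak, against 1 or 2 in the other groups.

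CTCF matches were somewhat less frequent in these repeats than in other distal open sites, and far more frequent than in repeats at large. The consensus, a 12-letter motif with alternative letters, was present in 205 mostly repeat peaks (3.99%, interval 3.49% to 4.57%), against 5.06% of other shared distal peaks, 5.02% of all shared distal peaks and 0.0365% of mostly repeat windows (24 of 65769). In 117 of the 205 peaks a match lay wholly in lower-case bases. Among peaks with only unique words, 5.22% of mostly repeat peaks and 5.04% of other peaks had a match. Group A held 91 of the 205 peaks (44.4%) and group B held 52 (25.4%), while 39 (19%) belonged to no group. Within group A, 7.05% of peaks had a match, against 0.871% of group A windows, and within group B 6.62% against 0.245%. Windows may cover another part of the repeat than the peaks do, and this was not separated from the presence of the motif. A match is a stretch of letters and shows no binding, and these sites were not tested for CTCF here. Near matches, such as those in the Nrbf2, Os9 and 1700003E16Rik peaks shown above, were not counted, so a peak without a match may hold a similar stretch.

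The matches in groups A and B sat mostly at the same place on the repeat. Peaks of a group share sequence, so a motif in the shared part is placed alike in each, and the positions describe that sequence. When peaks of group A were aligned to their most linked member (near Zfp629), 69 of the 71 matches that could be placed fell within 10 bases of the median position, at -12.5 bases from that peak's midpoint, and 69 of 71 read in the same direction. In group B, aligned to its most linked member near Omt2a, 37 of 46 matches fell within 10 bases of a median position at -48.5 bases, and 41 of 46 read forward. Peak midpoints themselves were concentrated in groups A and B, which the grouping by at least 75 aligned bases favours. In group A, 84.7% of 1015 aligned peaks had a midpoint within 25 bases of the median, although most of them had no exact match to the CTCF consensus. In group B, 61.5% of 725 did, and in group C 20.1% of 254. Peaks were aligned to the most linked member with 150 bases on either side. Midpoint quartiles were -120 and 124.5 bases in group C, against -6 and 17 in group A and -30 and 9 in group B. The shares depend on the member chosen, so they do not compare the groups.

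**Figure D4:**
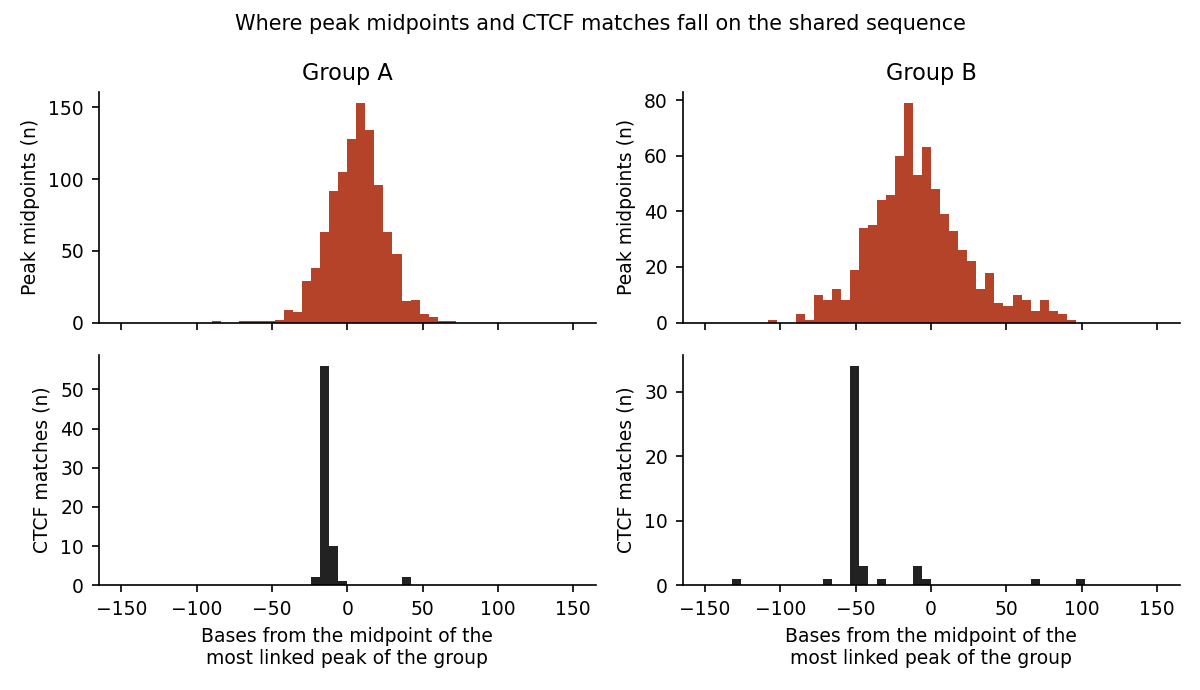
Positions of peak midpoints (top) and CTCF matches (bottom) along the shared sequence of group A (left) and group B (right), in bases from the midpoint of the group's most linked peak, with counts on the y axes. Midpoints cluster near the centre, which the grouping by aligned bases favours. In group A 69 of 71 matches and in group B 37 of 46 fall within 10 bases of their median position.

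Peaks with the consensus scored a little higher. Mostly repeat peaks with a match had median scores of 38 in replicate 1 and 47 in replicate 2, against 35 and 42 without. In group A the medians were 43 and 50 with a match, against 40 and 48 without. Other shared distal peaks showed a wider gap, 69 and 79 with a match against 46 and 55 without. The peak near Fadd, a death-receptor adaptor, shown above, scored 74 in replicate 1 and 91 in replicate 2, and the peak near Top1mt, a mitochondrial topoisomerase, 77 and 87. A peak with a match near Ankef1, which belonged to no group, scored 91 and 93.

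Of the 25 motifs searched, box B was found in the most mostly repeat peaks. It occurred in 784 mostly repeat peaks (15.3%, interval 14.3% to 16.3%), against 4.46% of other shared distal peaks, 4.91% of all shared distal peaks and 9.58% of mostly repeat windows. Group C had it in 43.1% of peaks and 42.3% of windows, and group B in 40.3% of peaks and 51.0% of windows. In group B, 305 of 325 matches fell within 10 bases of their median position, which again describes the sequence that the group shares. Peaks with box B scored slightly lower, with medians of 33 and 40, against 36 and 43 without it. An alignment to an annotated tRNA was found in 8 of the peaks (0.156%), against 0.186% of other shared distal peaks.

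Developmental motifs that are common in other distal peaks were thinner here. The E-box CAGCTG was present in 9.08% of mostly repeat peaks, against 18.9% of other shared distal peaks and 3.76% of mostly repeat windows. For TGACAG, the letters read by MEIS homeodomain factors of limb and heart, the shares were 6.63%, 14.7% and 6.54%. For the NFI motif TTGGCA they were 4.19%, 8.66% and 5.45%, and for GGAATG of the TEAD factors 7.50%, 11.2% and 7.31%. AP-1 (TGANTCA, the contact of FOS and JUN) differed little from other distal peaks, at 5.05% and 5.32%, and above the 2.85% of windows. The neurogenic E-box CAGATGG was found in 7.93% of mostly repeat peaks, 6.77% of other peaks and 3.16% of windows. All 25 motifs were counted as present or absent in 150 bases, on both strands, and some of them overlap in their letters.

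**Figure D5:**
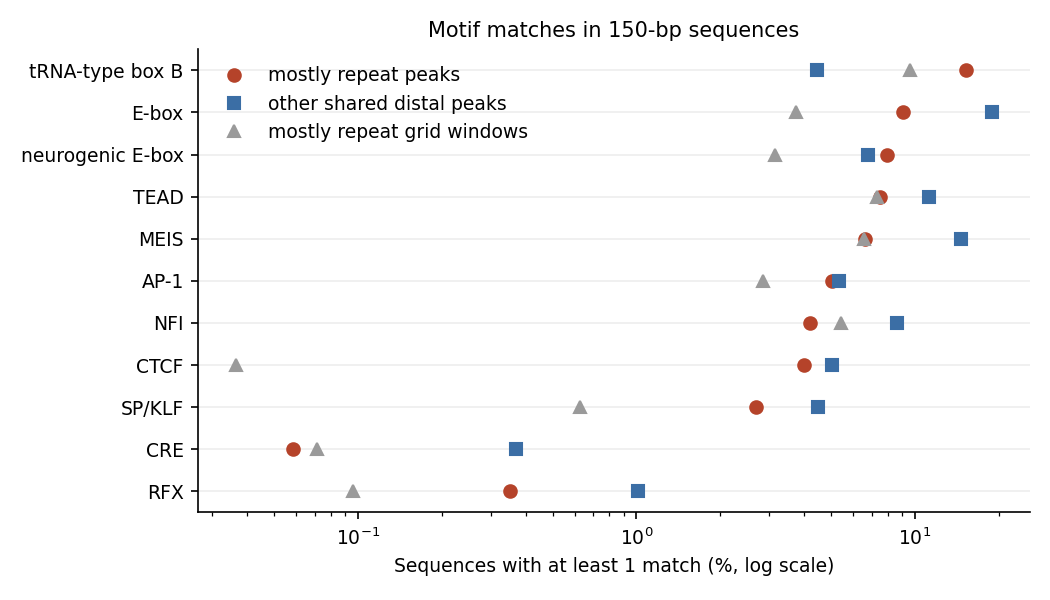
Share of 150-base sequences with at least 1 match to each of 11 motifs (x axis, percent on a log scale), in mostly repeat peaks (red circles), other shared distal peaks (blue squares) and mostly repeat grid windows (grey triangles). Box B stands at 15.3% in mostly repeat peaks against 4.46% in other peaks, and CTCF at 3.99% and 5.06% against 0.0365% in windows.

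The smaller groups brought their own motifs. In group D, 32.4% of peaks had the E-box CAGCTG, 26.5% the SOX motif ACAATGG and 25.6% the Hox-Pbx motif TGATTNAT, against 24.4%, 11.6% and 9.51% of group D windows. The peak near Rptor shown above, whose gene encodes an mTOR complex subunit, has 2 E-box matches and scored 63 in replicate 1 and 72 in replicate 2. The E-box was not particular to group D, as 20.5% of group F peaks had it, against 5.60% of group F windows. In group E, 16.5% of peaks had an AP-1 match, against 11.5% of its windows. The motifs are part of the sequence that defines a group, so their frequency in peaks is given beside that of the group's windows. Windows were laid without regard to the repeat and may miss the part that holds a motif. A difference in position and a difference in sequence cannot be told apart here.

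Tandem repeats were a minor component. Over 50% of the bases lay in perfect runs of a unit of 1 to 6 bases in 67 peaks (1.31%), against 2.70% of mostly repeat windows. Of these 67, 29 had the dinucleotide AC (or its complement) as the unit of the longest run and 10 had AG. Their median scores were 33 in replicate 1 and 38 in replicate 2, and 60.9% of their 36-base words were unique at the median. The best-ranked lies 1714 bp from a TSS of Nr2f1, a nuclear receptor of the developing nervous system, and scored 95 and 103.

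The strongest mostly repeat peaks were found beside genes of many kinds, named here as the nearest protein-coding TSS, which does not show what a site controls. The best-ranked lay 1130 bp from a TSS of Ddc, which encodes the decarboxylase that makes dopamine and serotonin, and scored 137 in each replicate. The next, at 2945 bp from a TSS of Maml3, a Notch coactivator, scored 133 in replicate 1 and 134 in replicate 2. Peaks near H2-K1, a class I histocompatibility gene, and Kdm6b, a demethylase of histone H3, scored 116 and 123, and 115 and 125. Others of the best 10 lay nearest to Fst (the activin-binding follistatin), Ift81 (ciliary transport), Usp18 (which removes ISG15 from proteins) and Gtf3c4 (a subunit of TFIIIC), with scores between 107 and 126. Of these 10, 7 had only unique 36-base words, while the peak near H2-K1 had 55.7% unique.

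Individual genes had few mostly repeat peaks. They were nearest to 3718 genes, of which 2713 had 1 such peak and 35 had 5 or more. At most a gene had 8, and this count was reached by Tmem267, Zfp64 and Kif2b. Near Tmem267 the 8 peaks lay within chr13:119596436-119600525 beside 1 other shared distal peak, with scores of 37 to 100 in replicate 1 and 49 to 103 in replicate 2 and a median of 59.1% unique words. Near 2010315B03Rik, 7 peaks lay within chr9:124256376-124268225 beside 4 others, with 64.3% unique words at the median. Near Zfp64, a zinc-finger gene, the 8 peaks were spread over chr2:168861516-169035605 among 49 others, came from groups A, B and D or from none, and had a median of 100% unique words. Those of Kif2b, a kinesin gene, were spread over chr11:91167296-92070825 among 24 others. The rest of the top 10 had 6 each, namely Adcyap1 (the neuropeptide PACAP), Adgrl3 (an adhesion receptor of neurons), Ccdc171, Ldb2 (a cofactor of LIM-homeodomain proteins), Lrfn5 (a synaptic adhesion protein) and Pacs1 (a sorting adaptor). Smyd3, a methyltransferase, and Zmiz1, a transcriptional coactivator, also had 6.

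Genes of embryonic patterning had few repetitive sites among their distal peaks. In 9 lists of developmental genes the mostly repeat share of shared distal peaks lay between 0% for liver and endoderm (0 of 156 peaks, interval up to 2.40%) and 3.35% for endothelium (6 of 179), against 4.18% over all genes. Lists for neural progenitors (0.993%, 3 of 302), heart (0.901%, 2 of 222), limb and mesenchyme (1.32%, 9 of 683), somite and muscle (1.39%, 3 of 216) and signalling (0.319%, 1 of 313) had intervals wholly below 4.18%, as did liver and endoderm. Intervals of the erythroid, endothelial and Hox lists included it. Chemoreceptor genes, the olfactory and vomeronasal receptors by symbol, went the other way with 15.2% (75 of 492, interval 12.3% to 18.7%), and zinc-finger genes of the Zfp kind stood at 5.64% (103 of 1826, interval 4.67% to 6.80%).

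Scores near single developmental genes ranged widely. Near Meis1, a homeobox gene of limb and heart, 3 mostly repeat peaks stood beside 118 others, and the strongest scored 87 in replicate 1 and 92 in replicate 2, at 132991 bp from a TSS. The peak near Sox2, a neural progenitor gene, belonged to group D, lay 377686 bp away and scored 75 and 78. In an intron of Pax3, the regulator of muscle precursors and neural crest, a group G peak scored 75 and 86. Of 2 peaks near Sox9, the cartilage regulator, the stronger scored 70 and 85. Near Pecam1, an endothelial adhesion gene, the strongest of 3 scored 53 and 73, and near Tbx20, a heart gene, a wholly lower-case group C peak scored 36 and 37.

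Few shared distal peaks overlapped enhancers known to work in embryos, and mostly repeat peaks did so less often than others. RefSeq carries the VISTA collection, in which candidate enhancers were tested in transgenic mouse embryos. How candidates were chosen for testing was not taken into account. Of the mostly repeat peaks, 17 (0.331%, interval 0.207% to 0.530%) overlapped 15 VISTA enhancers by at least 1 bp, against 0.914% of other shared distal peaks and 0.890% of all shared distal peaks. Hindbrain and forebrain activity were each recorded for 6 of the 15 and limb activity for 5. Enhancer mm1473 near Nedd4, active in the limb of 11 of 11 embryos, held 2 overlapping mostly repeat peaks. In replicate 1 the first scored 102 and the second, a wholly lower-case B1-related sequence, scored 68. Both were given a replicate 2 score of 115, that of the replicate 2 peak overlapping each most. This may be a single replicate 2 peak, so the 115 cannot be credited to the B1-related sequence. Enhancer mm1677 near Vangl2, a planar polarity gene, was active in the neural tube of 9 of 9 embryos and held a peak with scores of 44 and 64. All 15 enhancers also held other shared distal peaks, between 1 and 3 each, so their activity cannot be assigned to the repeat.

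The spacing of mostly repeat peaks was close to that of other open sites, apart from overlapping peak calls. The nearest other shared peak was a median of 2160 bp away, against 2060 bp for other shared distal peaks. It overlapped the peak itself for 18.6% of mostly repeat peaks and 3.69% of the others. A nearest peak that did not overlap and lay within 300 bp was found for 3.99% of mostly repeat peaks and 6.55% of the others, and no shared peak within 5 kb for 34.3% and 32.6%.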

How the data were processed

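DNase-seq peaks and hotspots of 2 replicates were used as deposited by the authors. Each list was made from the mm10 alignments of its own replicate, per the text deposited beside the files. No source used here names the aligner, caller, filters or read length. Peaks carry a deposited score from 1 to 150, and hotspots a −log10 q value with a ceiling of 100, as the authors deposited them. Scores of unknown zero point allow no ratios, and reads from near-identical repeats may have been dropped or placed at random before deposit, which would lower or shift these peaks.

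The mostly repeat peaks, gene lists, motifs and tests were chosen with earlier results of these data known. Lower case was read from RefSeq's GRCm38.p6 sequence (masking tool not stated, median masked run 29 bases) and TSSs from all transcripts of protein-coding genes in GENCODE M21. Words of 36 and 20 bases were counted on both strands over chromosomes 1 to 19, X and Y, with code checked on simulated data. Tandem bases lay in runs of at least 12 bases of a unit of 1 to 6. BLAST+ 2.17.0 (word size 11, E value 1e-05) linked peaks with at most 30% tandem bases, leaving out pairs closer than 300 bp, and leidenalg 0.10.2 (seed 1) grouped them. Grid windows joined the group of their best match. Alignments to annotated elements spanned at least 50 bases.

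A peak's rank is its mean rank by score over both lists. Named are the 10 best-ranked peaks, the 10 genes with most peaks (Smyd3 and Zmiz1 tie with the last), leading peaks of each group, and up to 3 genes per list, from which the text takes a few. A few of the peaks so chosen are not reported here. The sequences shown are the best-ranked of their kind, chosen after values were seen. With 1 group there is no test between conditions. Intervals are Wilson 95% intervals and cover counting error only, neighbouring peaks are not independent, and replicate values are given side by side. Tables were handled in Python 3.11.15 with pandas 2.3.3.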

Additional observations from a re-analysis of the deposited data

How the results depend on the processing

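Both score differences kept their sign under every alternative that could give them. With over 75% lower-case bases there were 2021 peaks (1.647% of shared distal peaks), score differences of -16 in replicate 1 and -19 in replicate 2, and CTCF matches in 3.117%. Among peaks at or above the median score of each list these were 1334 peaks, 2.165%, -8, -9 and 5.622%. Only for peaks whose 36-base words all occur once, an alternative chosen after seeing the data, they were 2470 peaks, 2.117%, -8, -9 and 5.223%. Beyond 5 kb from a TSS the share was 3.901% and the replicate 1 difference -11, and with an overlap of at least 75 bp the replicate 2 difference was -14. Taking a single list, without replicate 2 or without replicate 1, gave between 7077 and 8568 peaks, 4.501% to 4.752%, differences of -10 and -12 in the list used, and CTCF matches in 2.918% to 3.25%, since peaks found in 1 list then count too. Why the CTCF share moved was not tested. The 8 values taken as unchanged, the count of 7077 among them, moved by less than the interval or the SD between replicates, or, for counts, by under 1.5 times. No paired analysis was possible because there is 1 group and so no test between groups to block, and differences between sets of sites are given within each replicate instead. Depth is unknown, so a repeat without a peak cannot be called closed.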

Other observations

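Several rarer motifs were distributed differently from the main ones. YY1, searched as AAGATGGCG, was found in 21 mostly repeat peaks (0.409%), against 0.168% of other shared distal peaks and 0.394% of mostly repeat windows, so its share was that of repeats at large. The extended nuclear receptor motif TCAAGGTCA was found in 34 mostly repeat peaks (0.663%), against 0.354% of other shared distal peaks and 0.316% of windows. The cAMP response element TGACGTCA was found in 3 mostly repeat peaks (0.0585%), against 0.369% and 0.0715%. The RFX motif GTTGCCATG was found in 18 (0.351%), against 1.01% and 0.0958%, and the SP and KLF motif GGGCGGG in 138 (2.69%), against 4.50% and 0.625%. These counts are small, and the motifs were not tested.

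The 1945 mostly repeat peaks of replicate 1 with no partner in replicate 2 held fewer of the most repetitive sequences than the shared ones. Under 50% of the 36-base words were unique in 3.24% of them (interval 2.54% to 4.12%), against 6.18% (5.55% to 6.87%) of the 5132 shared peaks, while the medians were 99.1% in both. Their median GC content was 50.7% against 50%, and alignments to B1_Mus2 were found in 5.35% against 4.46%. They lay farther from genes, with a median TSS distance of 23803 bp against 16640 bp, and in narrower hotspots, with a median width in replicate 1 of 115 bp against 186 bp.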
